A study of Mus musculus with 24 samples.

Results

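Cigarette smoke and humidified air were compared over all cultures of a mouse airway series, to describe what smoke did in female and in male cultures alike. All 24 of the 24 libraries entered, 12 from smoke and 12 from air, with the exposure and the sex of each taken from its label. Every culture was grown from tracheal epithelial cells of wild-type FVB/NJ mice, 7 to 8 weeks old. The cells were expanded, differentiated for 10 to 14 days with their upper side facing air, and then kept for 10 days under smoke or humidified air, where a single smoke exposure burned 2 cigarettes over roughly 8 minutes. This gave 4 groups of 6 inserts, an air and a smoke group for each sex. The labels name no donor and no pool of mice for any insert, so the inserts of a group may be technical replicates, and every p-value measures only the spread between inserts.

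Tracheal epithelium holds basal, ciliated and secretory cells, with rarer ionocytes, tuft cells and neuroendocrine cells. Ciliated cells move mucus along the airway, secretory cells make defence proteins and carry enzymes that oxidize foreign chemicals, and basal cells renew the layer. Smoke carries polycyclic aromatic hydrocarbons, which bind the aryl hydrocarbon receptor, and oxidants, which release the transcription factor NRF2. Repeated injury can turn airway epithelium towards a squamous, keratin-rich form.

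Markers of the labelled tissue were present in every library. Epcam and Cdh1, which mark epithelium, had normalised counts of at least 4919 and 15436 in all 24 libraries, and Krt5, the basal cell keratin, of at least 38677. Of 3 fibroblast collagens Col3a1 was at or below 2.77 in all 24 libraries, Col1a1 at or below 49.1 and Col1a2 at or below 66.7. Ptprc, which marks leukocytes, was at or below 8.31, and of the endothelial markers Cdh5 was at or below 0.923 and Pecam1 at or below 30.5. Xist, transcribed from the inactive X chromosome, was at or above 3665 in the 12 female libraries and at or below 10.6 in the 12 male ones. Between 16038813 and 24485024 gene reads were recovered as whole counts from 23 of the libraries. A pair of libraries stood apart. In insert 1 of female air and insert 4 of female smoke, levels moved with transcript length (Spearman rho across genes of -0.676 and -0.435, against -0.142 to 0.335 in the other 22), so the counts of gene lists below that move by over 1.5 times without this pair are also given without it. Inserts 1 to 3 and inserts 4 to 6 of a group also differed, in 680 genes in female air, 140 in female smoke, 2 in male air and 795 in male smoke (limma, adjusted p under 0.05). No label names a batch for these sets of inserts.

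Over all cultures, with sex as a covariate, smoke changed 6069 of the 13549 genes tested, or 44.8%, of which 2764 (20.4% of genes tested) rose and 3305 (24.4%) fell. These genes had an adjusted p under 0.05 in limma's moderated test on log2(normalised count + 1), and fold changes below are on that scale, smoke minus air, with their standard error (SE, n = 12 smoke and 12 air libraries). At least a 2-fold change was reached by 475 of the genes that rose and 1181 of those that fell. Since an average over all cultures can rest on 1 sex, each gene was also held to a stricter test, in which its p is the larger of its female and male p-values and both changes have the same sign. Both p-values come from 1 fit of all 24 libraries, in which the 4 groups share an estimate of the spread. By the stricter test 1316 genes changed in both sexes, 598 upward (4.41% of genes tested) and 718 downward (5.3%), and all 1316 were also called over all cultures. Counts of gene list members below stand against these shares, 20.4% and 24.4% over all cultures and 4.41% and 5.3% in both sexes. Members and lists were chosen with earlier results of these data known, so such counts describe the lists and do not test them. Among the 1316 genes, 193 rose and 291 fell by at least 2-fold in each sex. Without female air insert 1 and female smoke insert 4, the number changed in both sexes was 2908. With single libraries left out in turn it ranged from 927 to 2052, the highest without female air insert 1. It was 87 with inserts 1 to 3 of every group alone and 372 with inserts 4 to 6 alone. With the insert set (1 to 3 or 4 to 6) within each sex as a term of the fit, an alternative chosen after the data were seen, 1688 genes changed in both sexes, and these held 1313 of the 1316. That term assumes a set difference common to air and smoke. A limma fit within each sex called such a difference for 7 genes in female and 167 in male cultures. The set differences in air and in smoke had a Pearson r across genes of 0.114 in female and -0.120 in male cultures. Among genes named here, 16 that did not pass in both sexes otherwise did so with that term, namely Nqo1, Hmox1, Cxcl10, Mybl2, Rrm2, Cldn6, Fscn1, Cdc20b, Deup1, Ift172, Krt1, Col6a1, Hes2, Cftr, Erap1 and H2-T23.

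The female and the male response share no library, so they can be set against each other, though their tests share 1 estimate of spread. Across all genes tested their log2 changes had a Pearson r of 0.721 and a Spearman rho of 0.709 (genes are not independent replicates), and 77.0% had the same sign. Of the 4713 genes called in female cultures 92.0% moved the same way in male cultures, and of the 2979 called in male cultures 92.7% moved the same way in female ones. Among the 1316 shared genes the median absolute change was 0.92 in female and 0.87 in male cultures, and the change was larger in female cultures for 54.9%. The difference between the sexes was tested directly as an interaction, which called 140 genes (1.03% of genes tested; 840 without the pair with a length trend and 305 with the insert set in the fit), 15 of them among the shared genes. The libraries themselves separated for a smaller number, with all 6 smoke libraries beyond all 6 air libraries in each sex for 391 genes that were higher (2.89% of genes tested) and 381 that were lower (2.81%). In the authors' deposited tables, 2577 of the genes tested had an adjusted p under 0.05 with the same sign in both sexes, and these held 1271 of the 1316.

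**Figure D1:**
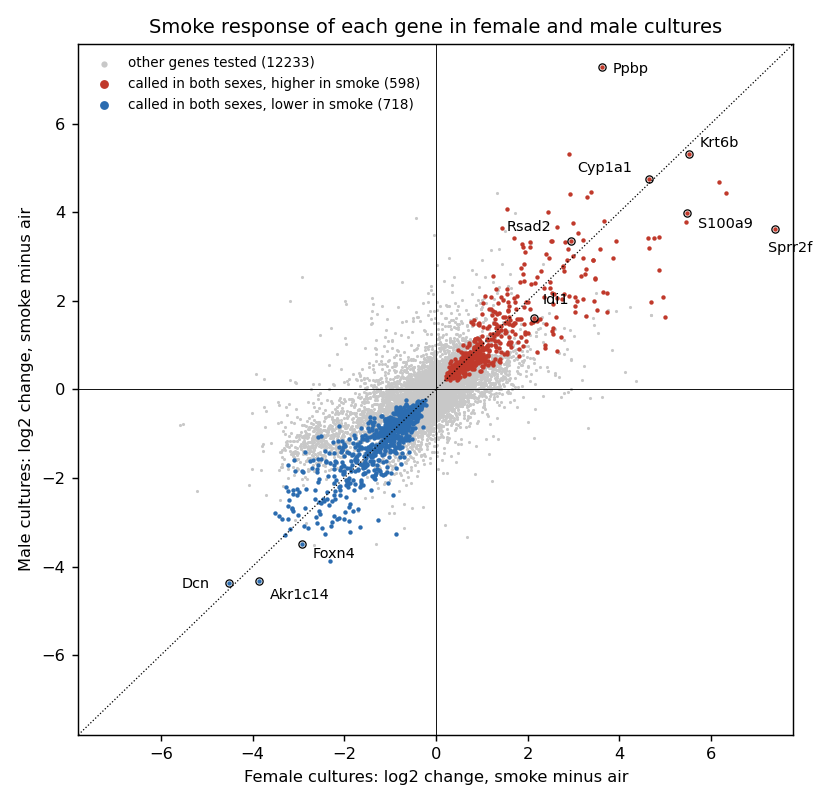
Log2 change of each of the 13549 genes tested, smoke minus air, in female cultures (horizontal axis) and male cultures (vertical axis); red and blue points are the 598 and 718 genes called higher and lower in both sexes, grey points all other genes, and the dotted line marks equal change. The coloured points lie along the dotted line in the upper right and lower left, and Ppbp and Sprr2f lie farthest from it among the labelled genes.

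Classic targets of the aryl hydrocarbon receptor rose in both sexes. The receptor binds the core letters GCGTG, on either strand, next to the genes it switches on. The 250 bases before the transcription start are given for 2 of its best known targets, the enzyme gene Cyp1a1 and the repressor gene Ahrr, read 5′ to 3′ along each gene's strand from RefSeq on GRCm38, the reference strain and not FVB/NJ, with that core in capitals.
Cyp1a1 (chr9:57697363-57697612, plus strand): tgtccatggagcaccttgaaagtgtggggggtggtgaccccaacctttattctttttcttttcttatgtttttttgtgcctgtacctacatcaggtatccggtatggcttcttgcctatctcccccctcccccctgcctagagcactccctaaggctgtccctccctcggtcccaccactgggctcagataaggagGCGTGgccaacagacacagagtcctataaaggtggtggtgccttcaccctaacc
Ahrr (chr13:74292332-74292581, minus strand): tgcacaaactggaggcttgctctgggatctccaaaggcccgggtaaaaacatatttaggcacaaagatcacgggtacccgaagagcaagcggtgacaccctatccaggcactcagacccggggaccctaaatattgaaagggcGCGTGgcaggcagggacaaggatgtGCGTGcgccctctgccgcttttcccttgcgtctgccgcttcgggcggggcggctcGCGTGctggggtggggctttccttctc
The core lies once before Cyp1a1, its first base at position -54 from the start, and 3 times before Ahrr, at -107, -82 and -27. These letters are common, since 43.8% of the 13608 promoters of genes tested (alternative starts counted separately) hold them on either strand, against 7 of 11 promoters of the receptor's list.

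Cyp1a1, which oxidizes aromatic hydrocarbons, had median normalised counts, with the lowest and highest library in parentheses here and below, of 3.0 (0.926 to 7.94) in female air, 102 (28.2 to 284) in female smoke, 5.79 (4.42 to 11.2) in male air and 196 (59.9 to 829) in male smoke. Every smoke library stood above every air library of either sex. It rose by 4.71 ± 0.44 (log2; adjusted p = 4.69e-08, and 1.16e-04 in both sexes), by 4.65 in female and 4.76 in male cultures. Cyp1b1, a related oxidase, rose from 2516 (610.1 to 4284) in the 12 air libraries to 14112 (5024 to 23751) in the 12 smoke libraries, by 2.54 ± 0.22, again with no overlap. Ahrr, which blocks the receptor, rose by 3.3 ± 0.35, from 2.22 (0 to 3.22) in male air to 22 (12.9 to 68) in male smoke. In female air it held 1 read in 6 libraries against 64 in female smoke, a ratio of 60.8 with a 95% counting interval of 10.52 to 2437. Tiparp, a second feedback gene, rose by 1.48 ± 0.20 and did not overlap between smoke and air. The receptor's own gene Ahr fell by 0.36 ± 0.13. In all, 8 of the 15 members tested rose and 3 fell, and 5 rose in both sexes, the fifth being Fam102b at 1.02 ± 0.12.

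NRF2 targets, which detoxify oxidants and make glutathione, moved less. Of 35 members tested, 16 rose, 2 fell and 17 did not pass, with a median change of 0.27 against -0.0052 for all genes tested. Nqo1, a quinone reductase, stood at 1488 (757 to 2599.5) in air and 3972 (909 to 4910.2) in smoke and rose by 1.02 ± 0.23 (adjusted p = 0.00102), but its test in both sexes did not pass (0.0951). Male smoke overlapped male air over all inserts but not within a set. In inserts 1 to 3 of male cultures Nqo1 ran from 1340.2 to 1520 in air and from 3491 to 4105 in smoke, and in inserts 4 to 6 from 757 to 824 and from 909 to 1099. With the set in the fit its adjusted p in both sexes was 7.72e-04. Hmox1, which breaks down heme, rose by 0.98 ± 0.24 over all cultures (adjusted p in both sexes = 0.103, and 0.0289 with the set in the fit), and its smoke and air counts did not overlap within either set in either sex. Fth1, the ferritin heavy chain, rose by 0.98 ± 0.24 over all cultures (adjusted p in both sexes = 0.34). Gsr, which regenerates glutathione, and the reductase Akr1b8 rose in both sexes, by 0.53 ± 0.09 and 0.72 ± 0.14. These 2 were the only members to do so. With 1 library left out 0 to 5 members rose in both sexes, and without the pair with a length trend 9 rose and 1 fell.

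Enzymes that oxidize and reduce foreign chemicals in resting airway cells went the other way. Of 33 monooxygenases and carbonyl-reducing enzymes tested, 25 fell and 2 rose, with a median change of -1.22, and 16 fell in both sexes (9 to 17 with 1 library left out). Akr1c14, a hydroxysteroid dehydrogenase, had counts of 397 (186 to 590.04) in female air, 18.7 (5.88 to 161) in female smoke, 3556 (2055 to 4816) in male air and 182 (68.8 to 363) in male smoke. Smoke and air did not overlap within either sex, though male smoke reached the level of female air. It fell by 4.09 ± 0.39 (adjusted p = 7.81e-08), the largest fall among the genes of this list. Flavin monooxygenases Fmo6, Fmo2, Fmo5 and Fmo1 fell (-2.54 ± 0.32, -1.66 ± 0.23, -1.29 ± 0.17 and -1.27 ± 0.26), each of them in both sexes. Among cytochromes P450, Cyp2b10 went from 1655 (730.05 to 2824) in air to 391 (111 to 649) in smoke with no overlap and fell by 2.2 ± 0.24. Cyp4b1 fell by 2.23 ± 0.29, and Cyp2f2, a main oxidase of secretory cells, fell by 1.28 ± 0.23. Aldehyde dehydrogenase Aldh1a1 fell by 1.84 ± 0.34, while Aldh3a1, also on the aryl hydrocarbon receptor list, rose by 0.52 ± 0.18. In bulk cultures, less of such RNA in each cell cannot be told apart from fewer cells of the type that makes it, here and for the markers of cell types below.

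Glutathione transferases, which couple glutathione to reactive chemicals, split. Gsta1 rose by 2.23 ± 0.44 (adjusted p = 2.98e-04), from 86.9 (29.2 to 400.1) in air to 378 (116 to 1550.4) in smoke with overlap in both sexes. Gstt1 went from 131 (49.9 to 273) to 33.1 (13.2 to 61.8) and fell by 1.9 ± 0.23, with no overlap within either sex. Gstm1, Gstm2 and Gstm6 fell in both sexes (-1.39 ± 0.24, -1.43 ± 0.21 and -1.5 ± 0.23). Of 22 members tested, 3 rose and 10 fell. Members of this family are close copies of each other, so reads may have been divided between them.

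**Figure D2:**
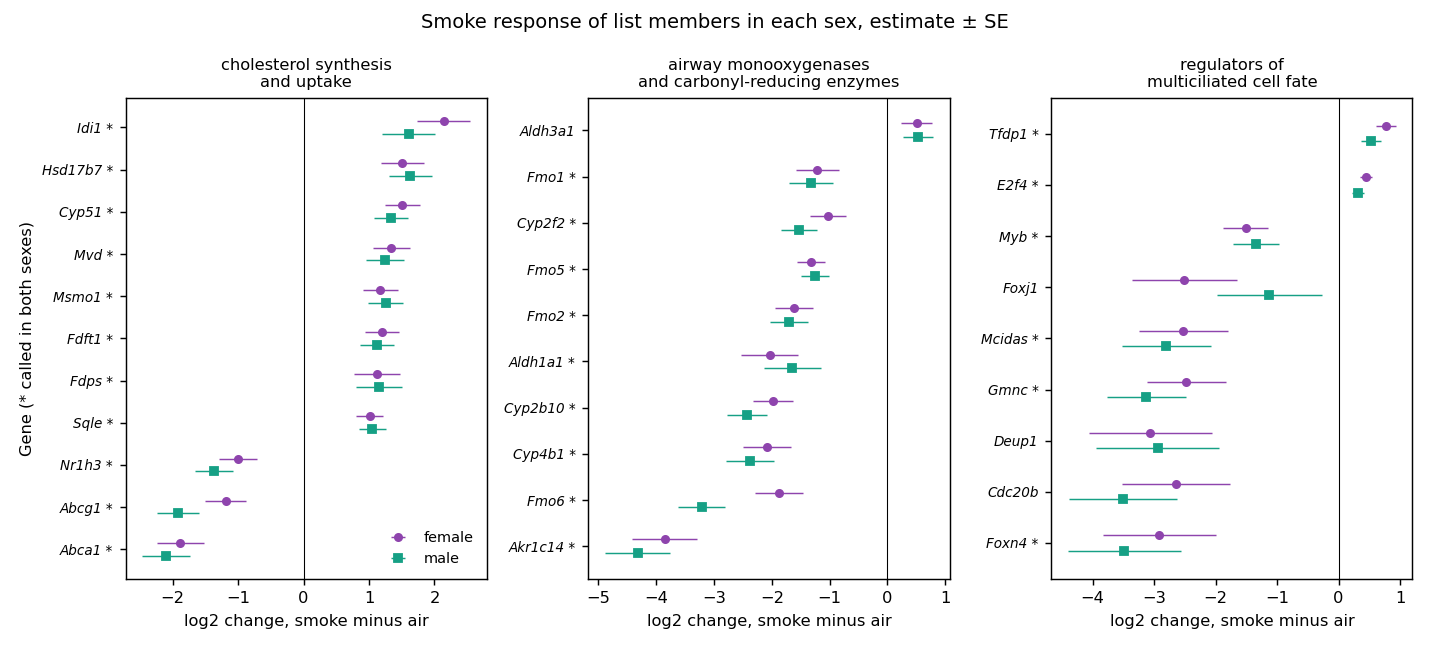
Log2 change, smoke minus air, of the individually named members of 3 gene lists in female cultures (circles) and male cultures (squares), with bars of 1 SE; an asterisk marks genes called in both sexes. The cholesterol synthesis enzymes drawn lie to the right of 0 in both sexes and Abca1, Abcg1 and Nr1h3 to the left, the second panel lies to the left except Aldh3a1, and among fate regulators Foxn4, Gmnc, Mcidas and Myb lie to the left with an asterisk.

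Squamous genes held several of the largest rises. The cornified envelope is the crosslinked protein shell of squamous cells, and small proline-rich proteins (the Sprr genes) are among its building blocks. Promoters of 2 of them, Sprr2f and Sprr2d, neighbours on chromosome 3 that were among the 12 largest shared rises by rule, are given with the AP-1 element TGANTCA in capitals, over the same 250 bases of GRCm38.
Sprr2f (chr3:92364937-92365186, plus strand): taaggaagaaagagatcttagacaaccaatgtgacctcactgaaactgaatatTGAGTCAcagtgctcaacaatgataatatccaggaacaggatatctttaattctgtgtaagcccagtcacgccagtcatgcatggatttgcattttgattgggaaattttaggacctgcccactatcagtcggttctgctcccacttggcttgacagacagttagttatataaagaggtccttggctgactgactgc
Sprr2d (chr3:92338890-92339139, plus strand): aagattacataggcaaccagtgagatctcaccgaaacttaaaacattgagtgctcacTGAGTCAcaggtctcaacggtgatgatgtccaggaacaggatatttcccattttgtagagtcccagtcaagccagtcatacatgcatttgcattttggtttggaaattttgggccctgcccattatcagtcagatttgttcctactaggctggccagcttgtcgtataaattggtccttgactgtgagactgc
The element begins at -197 and -193, and both copies read TGAGTCA. It occurs in 17 of 37 promoters of the squamous list (45.9%), against 4.94% of all promoters tested and 7.5% of the 560 promoters of genes that rose in both sexes.

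Krt6b, a keratin of injured and squamous epithelium, had counts of 100.1 (70.3 to 217) in female air, 5477 (3184 to 8644) in female smoke, 4.12 (0 to 10.1) in male air and 173 (87.4 to 293) in male smoke. Smoke and air libraries were far apart within each sex, while male smoke only reached the range of female air. It rose by 5.42 ± 0.31 (adjusted p = 3.65e-11), by 5.52 in female and 5.32 in male cultures. Sprr2f stood at 4.32 (2.18 to 7.94), 987 (312 to 3100.4), 0.759 (0 to 2.21) and 17 (11.3 to 47.7) in the same order of groups and rose by 5.52 ± 0.50. No smoke library overlapped an air library. Sprr2d rose by 5.43 ± 0.34, from 23.6 (14.6 to 54.7) to 2466 (634 to 3340.4) in female cultures. In male air its 6 libraries held no read, and the 137 reads of 5 male smoke libraries put the male level at least 51.0-fold higher, taking 3 reads over the group as the floor. For such genes the fitted log2 change depends on the 1 added to each count and is smaller than the ratio of the counts. Sprr2h rose by 5.39 ± 0.36 and Cst6, a cystatin of the cornified layer, by 3.81 ± 0.38. Of the 46 members tested 31 rose, 3 fell and 17 rose in both sexes (14 to 21 called in both with 1 library left out), with a median change of 1.29, the same with Sprr2d at its bound. Also among these 17 were Sprr1a at 3.79, Sprr1b at 4.09, Cnfn at 3.42, Krt16 at 2.63 and Krt6a at 2.57. The 3 that fell were Krt1 (-1.11), Tgm2 (-0.62) and Ly6d (-0.49), and loricrin (Lor), a late envelope protein, did not pass (-0.40, adjusted p = 0.0883). The Sprr genes are near-identical neighbours, so their reads may be shared.

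Tubb3, a tubulin mostly known from neurons, went from 3.44 (0.788 to 6.09) in air to 103 (16.2 to 557) in smoke with no overlap and rose by 4.61 ± 0.40. Trim40, a ubiquitin ligase, rose by 4.15 ± 0.38. Proteases of the epithelial surface rose too, with Tmprss11e at 3.17 ± 0.29, Prss27 at 1.75 ± 0.25 and Prss22 at 1.62 ± 0.17, each in both sexes, and Tmprss11f at 1.96 ± 0.38 over all cultures. Of 27 clade B serpins and surface proteases tested, 11 rose and 4 fell, and Serpinb2, an inhibitor of plasminogen activators, rose over all cultures by 2.46 ± 0.41 without passing in both sexes (adjusted p = 0.0799).

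**Figure D3:**
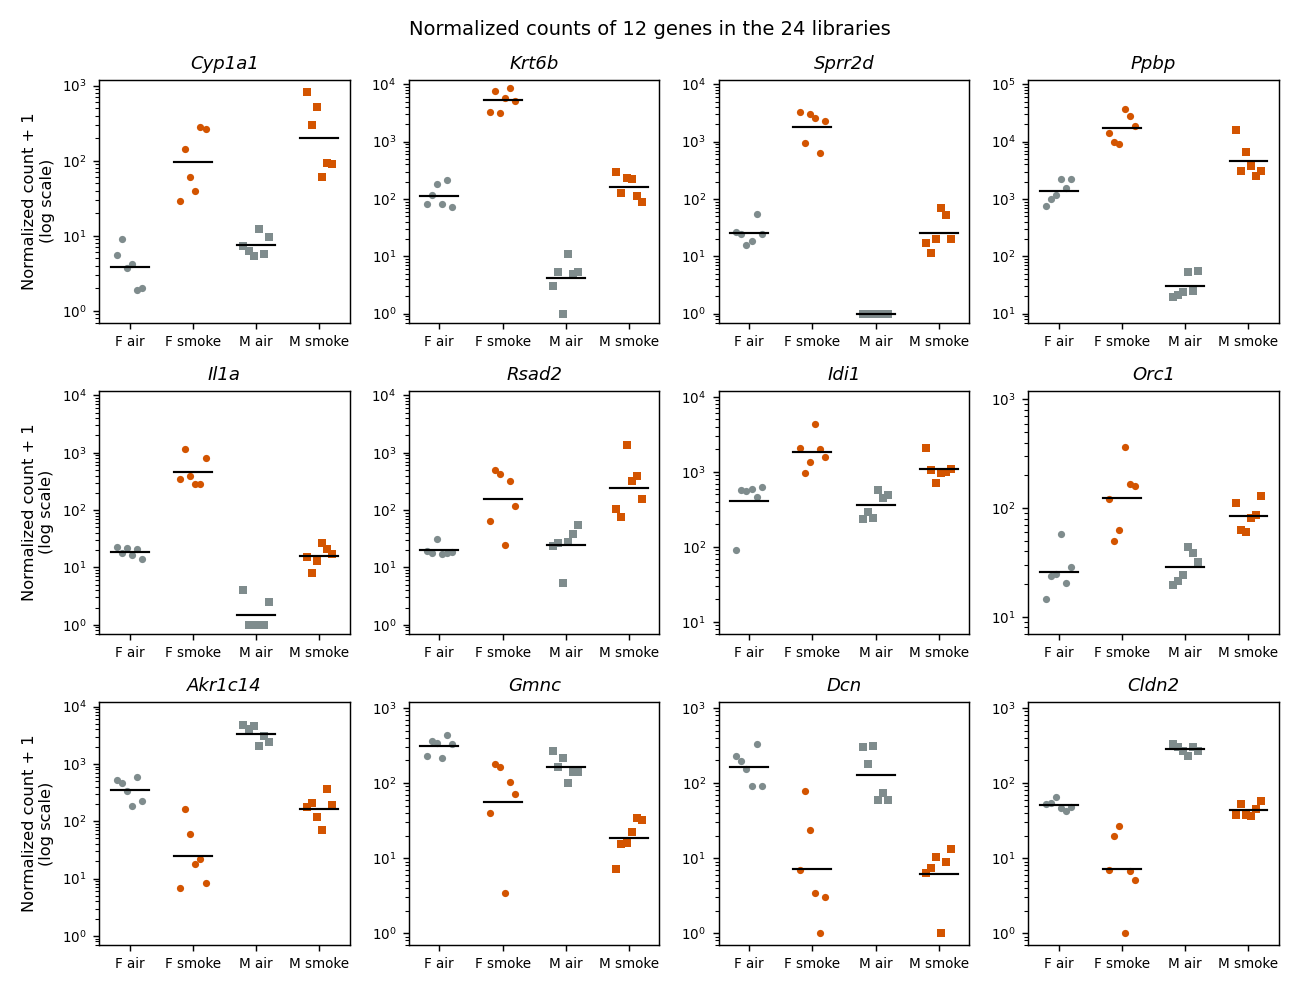
Normalised count plus 1 on a log axis for 12 genes in each of the 24 libraries, by group (circles female, squares male; grey air, orange smoke), with the mean of the log values as a bar. In the first row smoke stands above air within each sex in all 4 genes, and male air held no read of Sprr2d; in the last row smoke stands below air within each sex in all 4 genes.

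Secreted defence genes rose with them. S100a9, a calcium-binding protein that attracts and arms neutrophils, had counts of 27.5 (9.17 to 98.9) in female air and 2143 (306 to 2555) in female smoke, and 0 (0 to 1.12) and 15.7 (12.1 to 47.7) in male cultures. Within each sex the groups did not overlap, and it rose by 4.73 ± 0.41 (adjusted p = 2.43e-08). Male air held 2 reads of it in 6 libraries, so the male ratio of 71.0 has a counting interval of 19.2 to 592. Its partner S100a8 rose over all cultures by 3.19 ± 0.57 but did not pass in both sexes (adjusted p = 0.136). Pglyrp4, which binds bacterial cell walls, rose by 4.11 ± 0.37 and the antiprotease Slpi by 2.4 ± 0.28, the latter from 278 (60.1 to 546) in air to 889 (573 to 2759.99) in smoke with no overlap. Duox2, which makes hydrogen peroxide at the cell surface, rose by 3.33 ± 0.51, and S100a7a by 3.92 ± 0.46. Of 32 members tested 20 rose and 5 fell, 7 rose in both sexes and S100a1 fell in both (-1.15). Without female air insert 1, in which this list was the highest of the air libraries, 15 changed in both, as did 15 without the pair with a length trend. Lysozyme (Lyz2) and lactoferrin (Ltf), which act on bacteria, fell over all cultures (-1.25 ± 0.36 and -0.58 ± 0.22), without passing in both sexes (adjusted p = 0.496 and 0.404).

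Signals that recruit and activate leukocytes rose in a few large steps. Ppbp, a precursor of CXC chemokines that attract neutrophils, had counts of 1368 (747 to 2254) in female air, 16452 (8972 to 37494) in female smoke, 23.4 (18.6 to 54.1) in male air and 3443 (2549.9 to 15970.2) in male smoke. All smoke libraries lay above all air libraries, and it rose by 5.45 ± 0.48 (adjusted p = 2.43e-08). Cxcl3, another neutrophil attractant, rose by 3.52 ± 0.44, Cxcl5 by 2.39 ± 0.36 and Ccl5, which attracts T cells, by 2.56 ± 0.40, all in both sexes. Vcam1 and Cx3cl1, which tether leukocytes, fell in both sexes (-1.87 ± 0.26 and -1.04 ± 0.21). Cxcl10, an interferon-induced attractant of T cells, rose over all cultures by 2.84 ± 0.53, with 3.5 in female and 2.18 in male cultures, but missed the test in both sexes (adjusted p = 0.0655). In all 8 of 17 chemokine genes tested rose and 4 fell. The level of this list in male smoke ran from -0.67 in insert 1 to 2.05 in insert 5 (mean log2 over members minus the male air mean), so male smoke inserts fell on both sides of male air.

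Among cytokines, 15 of 21 tested rose, 1 fell and 7 rose in both sexes. Il1a, the alarm cytokine released by injured epithelium, had counts of 18.7 (13.2 to 21.3) in female air and 367 (281 to 1155) in female smoke, and of 0 (0 to 3.11) and 15.2 (7.13 to 25.5) in male air and smoke. Within each sex the groups did not overlap, and it rose by 4.03 ± 0.30 (adjusted p = 3.06e-09). Csf3, the growth factor of neutrophils, went from 230.3 (141 to 451) in air to 2493 (563 to 4088) in smoke with no overlap and rose by 2.93 ± 0.35. The IL-36 cytokines Il1f6 and Il1f9 rose by 3.07 ± 0.31 and 1.85 ± 0.24, Tnfsf9 by 2.13 ± 0.27, Lif by 1.53 ± 0.24 and the alarmin Il33 by 1.75 ± 0.32. Ptgs2, the inducible cyclooxygenase, rose by 3.32 ± 0.49 in a list where 7 of 18 eicosanoid enzymes fell, among them the lipoxygenases Alox15 (-1.16) and Alox12e (-1.12), both in both sexes.

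Genes that respond to growth factor and stress kinases rose without exception among those called. Of 29 immediate early and AP-1 genes tested 17 rose, none fell and 5 rose in both sexes. Dusp5 and Dusp4, phosphatases that switch off ERK, rose by 2.56 ± 0.24 and 1.96 ± 0.31, the first from 257 (169 to 403) in air to 1748 (624 to 4201) in smoke with no overlap. Klf4 rose by 1.51 ± 0.17, Myc by 1.13 ± 0.13 and the AP-1 subunit Fosl1 by 2.46 ± 0.52, the last without passing in both sexes (adjusted p = 0.16). Of NF-kappaB subunits and feedback genes 7 of 19 rose, and only Tnip3, at 1.9 ± 0.26, rose in both sexes. Zc3h12a and Tnfaip3, which damp the pathway, rose over all cultures by 1.4 ± 0.28 and 1.07 ± 0.24. EGF receptor ligand and Notch genes were 6 higher and 4 lower of 26 (23.1% and 15.4%, against 20.4% and 24.4% of all genes tested). Among them Nrg1, an ERBB ligand, rose by 1.53 ± 0.20, and the Notch target Hey1 fell by 1.86 ± 0.26, both in both sexes.

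Interferon-stimulated genes, which cells switch on to block viruses, rose together. Of 52 tested, 45 rose, none fell and 17 rose in both sexes (11 to 24 with 1 library left out, 30 without the pair with a length trend), with a median change of 1.15. Rsad2, which makes a nucleotide that stalls viral RNA synthesis, is shown with its promoter, where the interferon-stimulated response element GAAANNGAA is in capitals, searched on both strands.
Rsad2 (chr12:26456453-26456702, minus strand): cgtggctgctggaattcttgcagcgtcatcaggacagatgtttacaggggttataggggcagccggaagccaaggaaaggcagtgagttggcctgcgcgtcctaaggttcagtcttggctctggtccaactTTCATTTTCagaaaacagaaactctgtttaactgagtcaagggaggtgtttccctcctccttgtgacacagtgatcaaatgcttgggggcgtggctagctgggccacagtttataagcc
The element was found once, from -119. It stood in 20 of 51 promoters of the interferon list (39.2%), against 6.06% of all promoters tested and 8.04% of those of genes that rose in both sexes.

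Rsad2 had counts of 17.2 (16.3 to 30.9) in female air, 221 (24 to 500.4) in female smoke, 26.4 (4.42 to 53.3) in male air and 236 (73.7 to 1384) in male smoke. The lowest female smoke library, insert 4, lay within the range of female air, while male smoke and male air did not overlap. It rose by 3.15 ± 0.49 (adjusted p = 2.52e-05). Isg15, a ubiquitin-like modifier, went from 81 (34.6 to 185) in air to 668 (226 to 2017) in smoke with no overlap and rose by 2.87 ± 0.35. Oasl1, Oas3, Ifit3b, Mx2, Rtp4 and the transcription factor Irf7 also rose in both sexes, by 2.95, 2.92, 3.0, 2.33, 2.24 and 1.56, as did Ifit1bl1 by 2.96. Libraries of a group differed widely here, from 0.18 in insert 4 to 2.52 in insert 5 of female smoke and from 0.04 in insert 2 to 1.59 in insert 5 of male smoke (mean log2 over the list minus the air mean of the sex). Genes of antigen presentation by MHC class I, also known as interferon targets, did not move as a block, with 3 of 21 higher, 2 lower and none called in both sexes (2 without the pair with a length trend, and 2 with the insert set in the fit). The peptide transporter gene Tap1 rose over all cultures by 0.52 ± 0.12, and H2-T23 and the trimming enzyme Erap1 fell (-0.45 ± 0.10 and -0.35 ± 0.07).

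**Figure D4:**
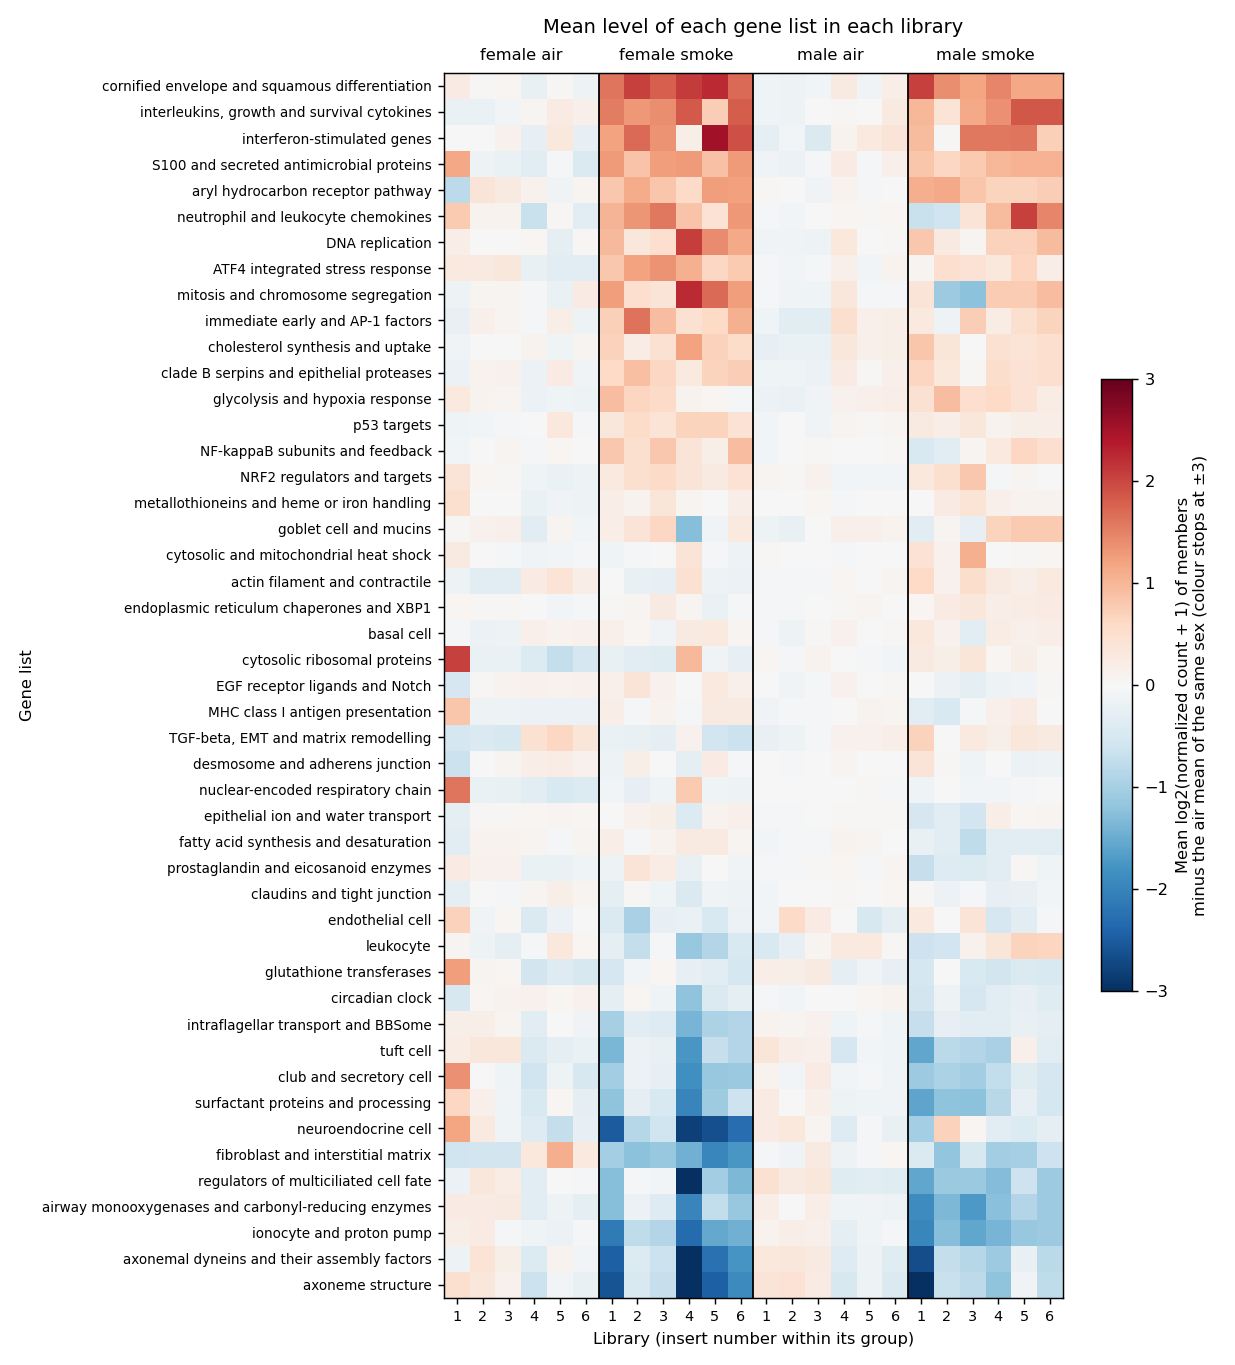
Mean log2(normalised count + 1) of each gene list in each of the 24 libraries, minus the mean of the air libraries of the same sex (red higher, blue lower, colour stopping at 3); columns are inserts 1 to 6 of each group and lists are ordered by their mean in smoke. The top 5 lists are red in nearly every smoke column, the ciliary lists are darkest in female smoke insert 4 and male smoke insert 1, and ribosomal and respiratory chain genes are red in female air insert 1.

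Cholesterol synthesis rose and cholesterol export fell. Cells that sense low sterol raise the synthesis enzymes through SREBP2, and cells that sense high sterol raise exporters through LXR. Idi1, an isomerase of the synthesis pathway, had counts of 570.1 (89.8 to 636) in female air, 1791 (979 to 4291) in female smoke, 368 (238 to 570.3) in male air and 1028 (709 to 2098) in male smoke. No smoke library reached down to an air library, and Idi1 rose by 1.87 ± 0.29 (adjusted p = 2.15e-05). Hsd17b7, Cyp51, Mvd, Msmo1, Fdft1, Fdps and Sqle, further enzymes of the pathway, rose by 1.57, 1.42, 1.3, 1.21, 1.16, 1.14 and 1.03, all in both sexes. The exporter genes Abca1 and Abcg1 fell (-1.99 ± 0.25 and -1.55 ± 0.23), and Nr1h3, which encodes the sterol sensor LXR alpha, fell by 1.18 ± 0.21. Abca1 went from 4425 (1339 to 5029) in air to 1148 (379 to 1877) in smoke, with only the lowest female air library, insert 1, inside the range of smoke. Of 33 members tested 23 rose and 5 fell, and 15 rose and 3 fell in both sexes (12 to 19 of either kind with 1 library left out). Fatty acid genes did not follow, with 5 of 25 higher and 8 lower (20% and 32%, against 20.4% and 24.4% of all genes tested). Scd1, the main desaturase, was not called over all cultures and was opposite in sign between the sexes (1.36 in female, -1.11 in male cultures). The desaturase gene Fads2b and Acacb, a carboxylase that restrains fatty acid burning, fell in both sexes (-2.07 ± 0.31 and -1.13 ± 0.17).

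Enzymes of glycolysis and a lactate carrier rose. Slc16a1, which carries lactate and pyruvate, went from 308 (195 to 493) in air to 1047 (529 to 2867) in smoke with no overlap and rose by 1.6 ± 0.20 (adjusted p = 1.95e-06). Gapdh went from 404 (308 to 493) to 677 (531 to 1114), also with no overlap, and rose by 0.89 ± 0.10. Pgk1, Eno1, Ldha, Pgam1, Pkm and Hk2, enzymes of the same pathway, rose by 0.88, 0.87, 0.87, 0.83, 0.80 and 0.91, each in both sexes. Ldhb, the lactate dehydrogenase of oxidative tissue, fell by 1.03 ± 0.18, in both sexes. Ero1l and Adm, classical hypoxia targets, rose in both sexes by 1.5 ± 0.19 and 1.22 ± 0.20, and Egln3, an oxygen sensor, rose over all cultures by 1.47 ± 0.53. Of 39 members tested 21 rose, 4 fell and 10 rose in both sexes (7 called in both without female air insert 5). Metallothionein, heme and iron genes were 6 higher and 4 lower of 22 (27.3% and 18.2%, against 20.4% and 24.4% of all genes tested). Among them Tfrc, the iron uptake receptor, rose by 1.26 ± 0.10 from 1879 (1091 to 2009) to 4005 (2598 to 5894) with no overlap, and the iron exporter Slc40a1 fell by 1.02 ± 0.21. Of 55 respiratory chain genes 1 rose (Cycs, 0.49) and 1 fell (Sdha, -0.24), and of 60 ribosomal protein genes 2 rose, Rps2 at 0.50 and Rpl29 at 0.44. These 2 lists depend on female air insert 1, the library in which they stood highest, since without it 13 and 27 of their genes were called, and without the pair with a length trend 20 and 37.

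DNA replication genes rose over all cultures, and a smaller number of them passed in both sexes. Of 48 replication genes tested 42 rose and none fell, and 8 rose in both sexes (4 to 15 with 1 library left out, 27 without the pair with a length trend, 14 with the insert set in the fit). Orc1, part of the complex that marks replication origins, went from 23.4 (13.7 to 56.7) in air to 98.2 (49 to 363) in smoke and rose by 1.93 ± 0.28 (adjusted p = 1.03e-05). Female smoke overlapped female air and male smoke did not overlap male air. Cdc6, Cdt1, Ccne1, Mcm3 and Pole2 also rose in both sexes, by 1.57, 1.2, 1.39, 1.32 and 1.1, and Rrm2, which makes deoxynucleotides, over all cultures by 1.52 ± 0.30. Of 48 mitosis genes 24 rose over all cultures and none in both sexes, with a median change of 1.26 in female and 0.05 in male cultures. Mybl2, a transcription factor of dividing cells, rose over all cultures by 1.34 ± 0.26, the condensin gene Ncapg by 1.13 ± 0.38 and the kinesin gene Kif23 by 1.04 ± 0.24. Male smoke inserts 2 and 3 stood lowest, and without either of them 38 and 39 mitosis genes were called, while without female smoke insert 4, female smoke insert 5 or female air insert 5 the number was 15. Without the pair with a length trend it was 15 over all cultures and 2 in both sexes.

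Stress pathways that follow DNA damage or amino acid shortage rose in part. Of 37 p53 targets tested 20 rose, 3 fell and 6 rose in both sexes (3 without male air insert 1, 10 without female air insert 1). Without the pair with a length trend 11 rose in both sexes and 1 fell. Pmaip1, which promotes apoptosis, went from 776 (613 to 1389) in air to 2219 (1479.9 to 5002) in smoke with no overlap and rose by 1.39 ± 0.17 (adjusted p = 1.98e-06). Cdkn1a, the cell cycle inhibitor p21, rose by 0.84 ± 0.12, the death receptor gene Tnfrsf10b by 1.04 ± 0.15 and Plk2 by 1.05 ± 0.12. Gdf15, a stress hormone, and the receptor gene Eda2r rose over all cultures, by 1.32 ± 0.34 and 1.07 ± 0.21, without passing in both sexes. Of 38 genes of the ATF4 integrated stress response 29 rose, 2 fell and 8 rose in both sexes (5 without male air insert 1), among them the tRNA synthetases Aars, Gars, Nars and Wars at 0.69, 0.84, 0.75 and 0.66, the amino acid carrier Slc7a5 at 1.65 ± 0.22 and the serine pathway enzymes Psph and Shmt2 at 1.0 ± 0.16 and 1.01 ± 0.13. Trib3, a classical ATF4 target, rose over all cultures by 1.76 ± 0.38, with 2.7 in female and 0.82 in male cultures, and did not pass in both (adjusted p = 0.346). Slc7a5 went from 1049 (314 to 1854) to 2603 (1972 to 4852) with no overlap. Mitochondrial chaperones Hspd1 and Hspa9 rose by 0.79 ± 0.15 and 0.63 ± 0.10 and Hspa2 fell by 1.03 ± 0.15, all 3 in both sexes, while the stress-inducible Hspa1a did not pass (0.61, adjusted p = 0.117). Of 31 chaperones of the endoplasmic reticulum 9 rose and 3 fell, with Hspa5 (BiP) at 0.51 ± 0.11 and Manf at 0.50 ± 0.16, and 21 were called without female air insert 1, and 20 without the pair with a length trend.

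Ciliary genes fell. Multiciliated cells are made under a cascade in which Gmnc and Mcidas act first, Myb and Foxn4 follow and Foxj1 with RFX factors switches on the parts of the axoneme. Spag16, a protein of the central pair of the axoneme, fell most among axoneme genes, and its promoter is shown with the RFX site GTTGCC in capitals, searched on both strands.
Spag16 (chr1:69826720-69826969, plus strand): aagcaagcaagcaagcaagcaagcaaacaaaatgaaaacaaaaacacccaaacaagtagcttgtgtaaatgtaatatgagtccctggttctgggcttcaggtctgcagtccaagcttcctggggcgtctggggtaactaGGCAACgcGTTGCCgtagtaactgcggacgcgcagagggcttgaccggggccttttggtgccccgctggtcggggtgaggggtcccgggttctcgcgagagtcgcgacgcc
A pair of such sites on opposite strands begins at -111 and -103. Among other ciliary genes searched in the same way, Dynlrb2 held 1 site, and Dnah5, Dnah8, Dnah9 and Ak8 held none. The site occurs in 33.9% of 56 promoters of the axoneme list, against 10.8% of all promoters tested and 11.2% of those of genes that fell in both sexes.

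Gmnc had counts of 332 (217 to 431) in female air, 86 (2.4 to 180.4) in female smoke, 152 (97.9 to 263) in male air and 17.9 (6.18 to 33.6) in male smoke. The groups did not overlap within either sex, and Gmnc fell by 2.8 ± 0.45 (adjusted p = 3.72e-05). Foxn4, a forkhead factor of multiciliated cells, fell by 3.2 ± 0.64, Mcidas fell by 2.67 ± 0.50 and Myb fell by 1.43 ± 0.26, all in both sexes. Foxj1 stood at 5460.5 (3723 to 7708) in female air and 1306 (20.4 to 4602) in female smoke, and at 1343 (886 to 1829.5) and 846 (103 to 1166) in male air and smoke, with overlap in both sexes. It fell over all cultures (-1.82 ± 0.61, adjusted p = 0.0176), but its test in both sexes did not pass (0.524). Cdc20b and Deup1, which serve the mass production of centrioles, fell over all cultures (-3.08 ± 0.61 and -3.0 ± 0.70), with adjusted p-values in both sexes of 0.0581 and 0.0662. Of 21 fate regulators tested 14 fell and 2 rose, and 4 fell and 2 rose in both sexes. With 1 library left out 2 to 8 were called in both, and without the pair with a length trend 7 fell and 2 rose. E2f4 and Tfdp1, partners in a complex that serves both the cell cycle and centriole formation, were the 2 that rose, by 0.38 ± 0.07 and 0.65 ± 0.11.

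The parts of the cilium fell over all cultures nearly without exception and yet mostly did not pass in both sexes. Of 56 axoneme genes tested 55 fell, with a median of -2.64 in female and -1.18 in male cultures, and none passed in both. Of 28 dyneins and assembly factors 25 fell and 1, Dnah8 at -2.54 ± 0.47, passed in both, and of 35 genes of intraflagellar transport and the BBSome 27 fell and 3 passed in both. Spag16 went from 371 (132 to 718) in female air to 39.6 (0 to 344) in female smoke and from 21.9 (8.77 to 67.3) to 4.0 (0 to 12.9) in male cultures, with overlap in each sex. Dnah5, an outer arm dynein, fell by 2.62 ± 0.75 (adjusted p = 0.00667, 0.345 in both sexes). Ak8, Dynlrb2 and Dnah9, further parts of the axoneme and its motors, fell over all cultures (-2.3 ± 0.65, -2.29 ± 0.67 and -2.45 ± 0.78), and so did the transport genes Bbs1, Dync2h1 and Ift172 (-1.06 ± 0.22, -1.05 ± 0.23 and -1.05 ± 0.20). Smoke inserts differed greatly from each other. The axoneme list ran from -6.47 in insert 4 to -0.45 in insert 2 of female smoke and from -3.15 in insert 1 to -0.10 in insert 5 of male smoke (mean log2 over the list minus the air mean of the sex). Without female air insert 1 and female smoke insert 4, 18 axoneme genes, 13 dynein genes and 15 transport genes passed in both sexes. With the insert set in the fit the numbers were 1, 1 and 8. With female smoke insert 4 alone left out the numbers were 3, 7 and 7.

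Some marker genes of secretory and rarer cell types fell as well, more of them over all cultures than in both sexes. Of 23 club and secretory genes tested 11 fell, 2 rose and 3 fell in both sexes. Without the pair with a length trend 4 fell and 1 rose in both sexes. Scgb3a2, a secretoglobin, went from 5368 (2152 to 66701) in female air to 583 (224 to 3591) in female smoke and from 29254 (25128 to 44689) to 5035 (3389 to 14301) in male cultures, and fell by 2.84 ± 0.46 (adjusted p = 4.18e-05). Female smoke overlapped female air and male smoke did not overlap male air. Cckar, a cholecystokinin receptor, fell by 2.91 ± 0.37 in both sexes, and Bpifa1, a secreted defence protein, fell by 3.05 ± 0.65 over all cultures. Scgb1a1, the classic club cell marker, fell over all cultures (-2.13 ± 0.62) but did not pass in both sexes (adjusted p = 0.499). Surfactant genes Sftpa1 and Sftpb fell in both sexes (-2.98 ± 0.63 and -1.85 ± 0.31), and Sftpc over all cultures (-3.12 ± 0.58). Female counts of Sftpb were low and overlapped, from 4.36 to 18.3 in air and from 0 to 6.26 in smoke. Sftpa1 overlapped between smoke and air in each sex. All 10 ionocyte and proton pump genes tested fell and 3 of them fell in both sexes (2 to 5 with 1 library left out, 5 with the insert set in the fit). Atp6v1c2, a proton pump subunit, went from 269.7 (167 to 609) in air to 93.7 (17.1 to 115) in smoke with no overlap, and fell by 1.98 ± 0.26. Foxi1, the factor that specifies ionocytes, fell over all cultures (-1.74 ± 0.42, adjusted p in both sexes = 0.128). The pump subunit gene Atp6v1b1 fell over all cultures by 2.06 ± 0.41, with -3.37 in female and -0.75 in male cultures. Its male counts overlapped, from 11.4 to 21.0 in air and from 3.33 to 23.9 in smoke. Tuft cell genes fell in 5 of 13 cases, with Dclk1 lower in both sexes (-1.69 ± 0.23) and the taste channel gene Trpm5 lower over all cultures (-1.96 ± 0.44). Neuroendocrine genes fell in 4 of 6 over all cultures and 1 fell in both sexes. Chga at -2.08 and Scg2 at -1.62 did not pass in both. Uchl1, another member, went opposite ways, with -2.91 in female and 2.55 in male cultures. The list ran from -1.01 to 0.69 in male smoke (mean log2 minus the male air mean), so male smoke inserts fell on both sides of male air. Goblet genes were split, 7 higher and 4 lower of 19 (36.8% and 21.1%, against 20.4% and 24.4% of all genes tested). The membrane mucin gene Gm9573 (Muc21) went from 1992 (1067 to 2799.6) to 7547 (2809.8 to 13616) with no overlap and rose by 1.96 ± 0.22, and Gcnt3, which branches mucin sugars, rose by 1.55 ± 0.27, both in both sexes. Agr3 fell over all cultures (-2.05 ± 0.69). Muc5b, a gel-forming mucin, did not pass (-0.52, adjusted p = 0.438).

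Basal cell genes were near the background over all cultures, with 7 of 27 higher and 6 lower. In both sexes 2 of the 27 rose and 4 fell, against 4.41% and 5.3% of all genes tested. Krt5 rose in both sexes, by 0.86 ± 0.14, and Krt17 over all cultures by 1.2 ± 0.29, while Dapl1 went from 186 (125 to 555) in air to 49.7 (28.9 to 113) in smoke with no overlap and fell by 1.94 ± 0.23. Pdpn, Bcam and the transcription factor gene Sox2 fell in both sexes (-0.75 ± 0.13, -0.75 ± 0.11 and -0.74 ± 0.12). Ion transport genes also moved both ways, 5 of 31 higher and 12 lower (16.1% and 38.7%, against 20.4% and 24.4% of all genes tested). Kcnn4, a calcium-activated potassium channel, rose in both sexes by 1.91 ± 0.29, and Scnn1b, a sodium channel subunit, fell over all cultures (-1.6 ± 0.32), with -0.51 in female and -2.68 in male cultures. The chloride carrier gene Slc26a9 rose by 2.35 ± 0.24, from 39.8 (16.3 to 56.3) to 206 (88.7 to 354) with no overlap, and Cftr, the chloride channel, fell over all cultures (-1.18 ± 0.26, adjusted p in both sexes = 0.0525).

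Junction, matrix and clock genes changed member by member. Of 34 claudin and tight junction genes 11 rose and 9 fell (32.4% and 26.5%, against 20.4% and 24.4% of all genes tested). Cldn2, which makes junctions leaky to cations, went from 49.3 (41.7 to 64.6) in female air to 5.79 (0 to 25.6) in female smoke and from 284 (231 to 329) to 40.2 (35.5 to 56.7) in male cultures and fell by 2.77 ± 0.33 (adjusted p = 1.10e-06). The groups did not overlap within either sex. Cldn6, a claudin of early epithelia, rose over all cultures by 3.09 ± 0.63, and Cldn22 fell in both sexes (-2.63 ± 0.30). Jam2 and Cldn8 fell in both sexes (-2.01 ± 0.20 and -1.63 ± 0.17), and so did Cdh2, N-cadherin (-2.04 ± 0.35). Among 26 desmosome and adherens genes 6 rose and 5 fell over all cultures (23.1% and 19.2%), near the shares of all genes tested. In both sexes 1 rose and 3 fell (2 and 4 without the pair with a length trend), against 4.41% and 5.3% of all genes tested. The desmoglein gene Dsg1b stood at 2.78 ± 0.52 and the cadherin gene Cdh26 at -2.91 ± 0.69. Of 50 actin genes 20 rose, 3 fell and 4 changed in both sexes, against 11 without female air insert 1 and 11 without the pair with a length trend. Fscn1, which bundles actin, rose over all cultures by 1.47 ± 0.28, and Mylk and Myl9, of the contractile machinery, fell (-2.58 ± 0.49 and -1.17 ± 0.39). Over all cultures, TGF-beta, EMT and matrix remodelling genes were called in smaller shares than all genes tested, 5 of 37 higher and 6 lower (13.5% and 16.2%). In both sexes 2 of the 37 rose and 3 fell, against 4.41% and 5.3% of all genes tested. Of that list Plat, the tissue plasminogen activator, went from 855 (459.9 to 1422) to 6312 (2189.8 to 17792) with no overlap and rose by 2.98 ± 0.26. Hes2, a member of the EGF receptor ligand and Notch list, fell over all cultures (-1.43 ± 0.28). Of 19 clock genes 9 fell and 3 rose, with Dbp and Tef, output genes of the clock, lower in both sexes (-1.76 ± 0.26 and -1.28 ± 0.12) and Per3 lower over all cultures (-0.77 ± 0.17).

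Dcn, which encodes the matrix proteoglycan decorin, had the largest fall of the genes named by rule. Its counts were 173 (90.7 to 329) in female air, 4.14 (0 to 78.2) in female smoke, 125 (57.7 to 314) in male air and 7.12 (0 to 12.1) in male smoke, and it fell by 4.44 ± 0.56 (adjusted p = 2.09e-06). The groups did not overlap within either sex. Decorin is best known from fibroblasts. Of 15 fibroblast and interstitial matrix genes tested 10 fell and none rose, and 3, Dcn, Serping1 and Gsn, fell in both sexes, against 5 without the pair with a length trend. The mean log2 level of the list, minus the air mean of the sex, ran from -0.59 to 1.09 in female air, -1.96 to -1.02 in female smoke, -0.14 to 0.28 in male air and -1.2 to -0.43 in male smoke. Col3a1, a defining fibroblast marker, had a read in 9 of 24 libraries, and Col1a1 and Col1a2 had median counts of 2.66 and 3.27. The part of such cells in the fall of Dcn was not tested. Leukocyte genes (2 of 8 higher, 4 lower) and endothelial genes (1 of 4 lower) gave small counts, and Cd68, a lysosomal protein of macrophages, rose in both sexes by 1.15 ± 0.18. Itgam rose over all cultures by 1.74 ± 0.35 and Vwf fell by 1.45 ± 0.39, and Col6a1 and Postn of the matrix fell (-1.81 ± 0.38 and -2.04 ± 0.37), none of the 4 in both sexes. Among genes that fell in both sexes without overlap in either and averaged at least 50 in air, Gfra1, Abi3bp, Rbp4, Adamtsl1 and Rspo1 came next after Dcn and Akr1c14 (-3.28 ± 0.47, -3.15 ± 0.43, -3.14 ± 0.45, -2.96 ± 0.31 and -2.94 ± 0.37). Abi3bp, a matrix protein, did not overlap between the 12 smoke and the 12 air libraries, going from 722 (441 to 997) to 84.8 (3.6 to 361). Nsun7, Lrfn5 and the prostaglandin D2 receptor gene Ptgdr, at -2.93 ± 0.55, -2.8 ± 0.42 and -2.74 ± 0.29, complete the 12 largest falls of that kind together with Gmnc and Cldn2.

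**Figure D5:**
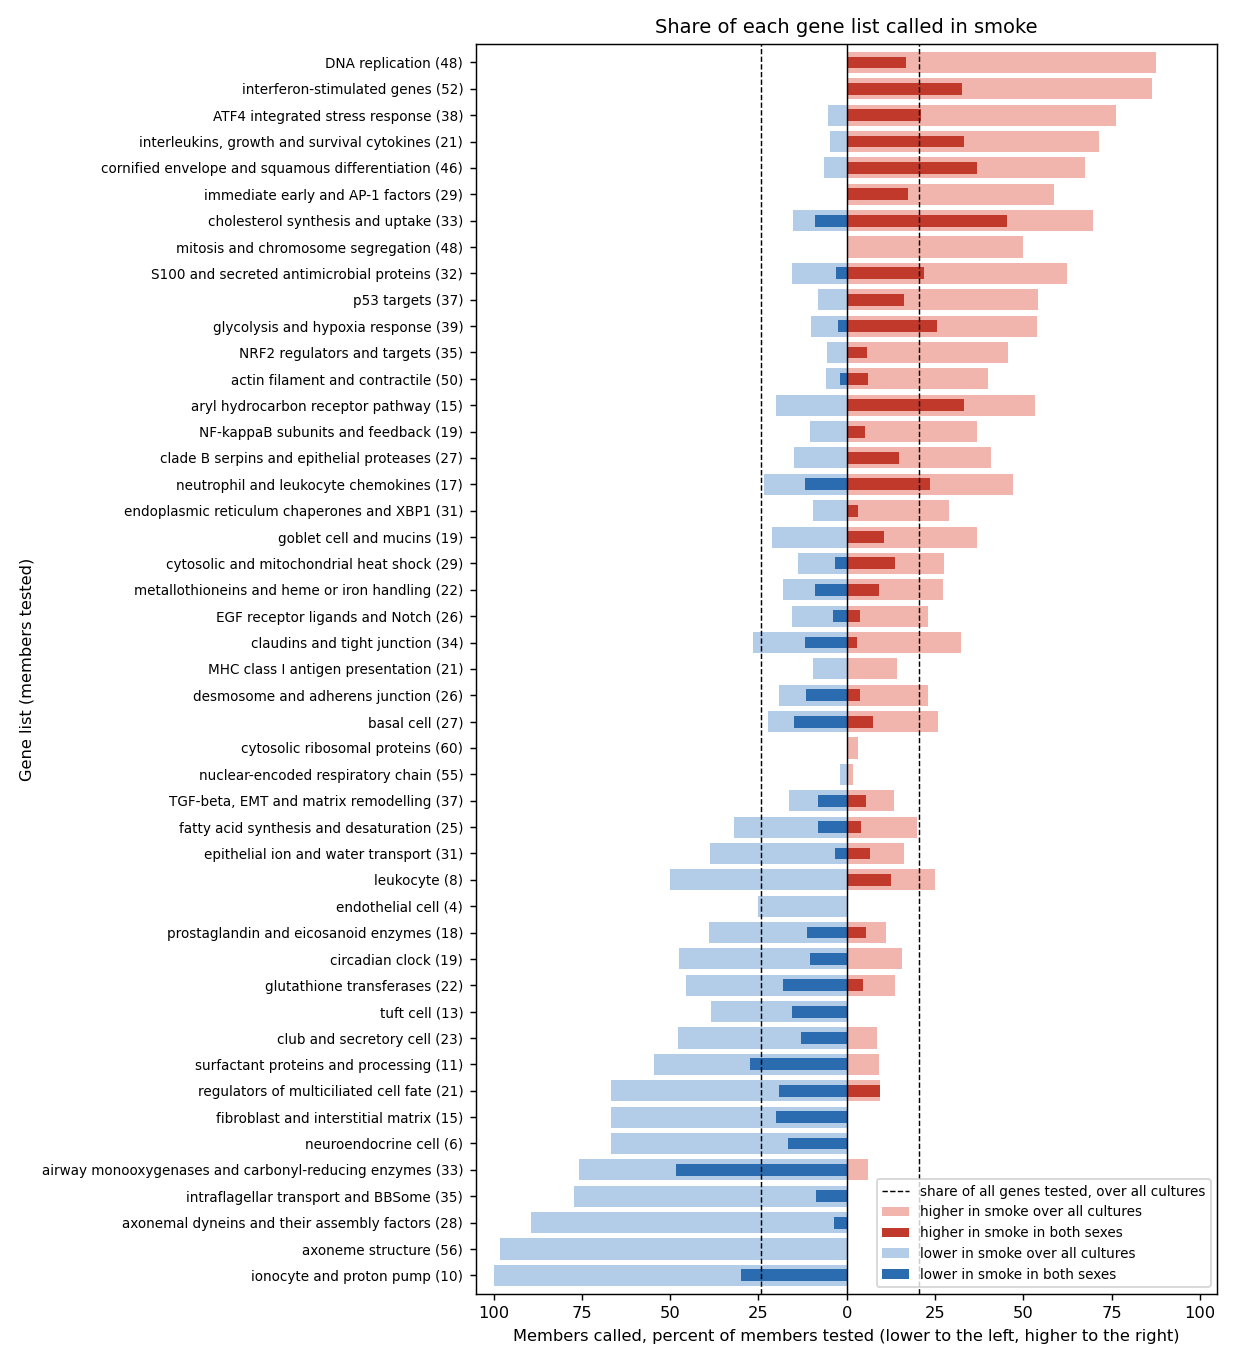
Share of the tested members of each gene list that were called higher (to the right) or lower (to the left) in smoke, over all cultures (light bars) and in both sexes (dark bars), with the shares of all genes tested over all cultures as dashed lines at 20.4% and 24.4%. Replication and interferon genes reach farthest to the right, and ionocyte and ciliary genes farthest to the left, where the dark bars of the ciliary lists stay short.

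The size of the shared change differed between the sexes for 15 of the 1316 genes, or 1.14%, close to the 1.03% of all genes tested. Female cultures had the larger change in 8, with Sprr2f (7.41 in female, 3.63 in male cultures), Cxcl3 (4.95 and 2.08), Ptgs2 (5.0 and 1.63), Nrg1 (2.21 and 0.84) and Slc7a5 (2.37 and 0.93) among them. Male cultures had the larger change in 7, such as Ppbp (3.63 and 7.27), Pglyrp4 (2.91 and 5.31), Psca (1.45 and 3.63) and Krt6a (1.71 and 3.43). Some of these genes began from unlike levels in air, as did Psca, with a mean count of 25833 in female and 73.5 in male air, and Ptgs2, with 29 and 1170.4. Psca, Gja1 and Podxl were in no gene list and were chosen after their values were seen. Outside the shared set, 28 genes were called in each sex's own contrast with opposite signs. Scd1, Gja1 (connexin 43) and Spink5, a protease inhibitor of squamous epithelium, were higher in female and lower in male smoke (1.18 and -0.79 for Gja1, 1.22 and -2.07 for Spink5), and Uchl1, a neuronal hydrolase, and Podxl the reverse (-2.91 and 2.55, -1.95 and 1.93).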

How the data were processed

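Per the submitters' processing notes, reads were checked with FastQC 0.11.9, trimmed with Trimmomatic 0.38.0, counted with HTSeq and normalised with DESeq2, on builds named GRCm38 and mm10; the aligner, its version and the strand setting were not given in the sources used here. The deposited signal values are counts divided by a size factor per library. The authors' deposited tables give a log2 fold change and adjusted p-values for each sex. Genes averaging 10 or more normalised counts over the libraries were tested (13549 of 25239), as log2(count + 1), with limma 3.58.1 in R 4.3.3 (linear model, trend, two-sided, Benjamini-Hochberg over all genes tested, threshold 0.05). All 24 libraries entered, in 4 groups of 6. Whole reads, to within 0.001 of a read, were taken from 23 libraries. They were tested with edgeR 4.0.16 and DESeq2 1.42.0 as alternatives, beside other scalings, pseudocounts, filters, weights, blocks, an insert set term and left-out libraries. Male smoke insert 5 was left out of the edgeR and DESeq2 fits, although its values were whole by the same tolerance. Reads are not independent molecules, so the counting intervals (95%, exact) and floors (3 reads) cover counting error only. Transcript lengths come from the deposited annotation on mm10, and promoters from RefSeq on GRCm38. The 6 promoters printed all hold their motif, and some others searched did not. Before Nqo1 and Fth1 no antioxidant response element (TGACNNNGC) was found. Scripts were tested on simulated data. Members and lists were chosen with earlier results of these data known. Named genes were the 12 largest shared changes each way (mean of at least 50 in the higher exposure, no overlap in either sex), the 3 largest of each list and further list members as examples. A few genes that the rule names are not reported here. Insert numbers did not pair the libraries.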

Additional observations from a re-analysis of the deposited data

Results flagged for a closer look

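Single libraries stood apart in 13 of the 164 gene groups and 2 of the 16 list groups checked, where chance marks about 1 in 20. Over all 264 named genes, most of them given here only by their fold change, it was 118 of 1056 groups. A library counts here when its gap to the nearest of the other 5 exceeds Dixon's 95% critical share of the group's range, on the log2 scale. Female air insert 1 was above the other female air inserts for Scgb3a2 (normalised count of 66701 against 2152 to 6290.4), Slpi (546 against 60.1 to 132), Dapl1 (555 against 125 to 213) and Gapdh (456 against 308 to 342), and below them for Idi1 (89.8 against 459 to 636). Female smoke insert 4 was low for Foxj1 (20.4 against 940.6 to 4602) and for the axoneme list (-6.47 against -2.60 to -0.45, mean log2 minus the air mean), and high for Slc16a1 (2867 against 888 to 1222). Male smoke insert 1 was low for Foxj1 (103 against 529 to 1166) and the axoneme list (-3.15 against -1.20 to -0.10). Elsewhere, Rsad2 was high in female air insert 3 (30.9 against 16.3 to 18.3) and low in male air insert 3 (4.42 against 22.8 to 53.3). Pmaip1 was high in female air insert 5 (1116 against 613 to 733), Ahrr had 0.926 in that library against 0 in the others, and Dcn was 0 in male smoke insert 4 against 5.30 to 12.1.

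The response differed between the sexes by the interaction test (limma, adjusted p under 0.05) for 17 of the named genes, given as female minus male log2 change. It was positive for Sprr2f (3.78), Ptgs2 (3.36), Spink5 (3.29), Cxcl3 (2.88), Scd1 (2.47), Fads2b (2.39), Scnn1b (2.16), Gja1 (1.97), Slc7a5 (1.44) and Nrg1 (1.37). It was negative for Uchl1 (-5.46), Podxl (-3.88), Ppbp (-3.64), Atp6v1b1 (-2.63), Pglyrp4 (-2.40), Psca (-2.18) and Krt6a (-1.72). Both changes were negative for Fads2b and Scnn1b, which fell further in male cultures, and for Atp6v1b1, which fell further in female ones.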

How the results depend on the processing

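The number of genes changed in both sexes, 1316, was 3952 with array quality weights, 2908 without female air insert 1 and female smoke insert 4, 87 with inserts 1 to 3 alone and 372 with inserts 4 to 6 alone. These held 1300, 1239, 76 and 307 of the 1316. With 1 library left out it ran from 927 (without male air insert 1) to 2052 (without female air insert 1). The number over all cultures, 6069, was 3743 with inserts 1 to 3 alone and 5644 to 7562 with 1 library left out. The number whose response differed between the sexes, 140, was 212 with quantile scaling, 2420 with array quality weights, 840 without that pair of libraries, 40 and 637 with inserts 1 to 3 and 4 to 6 alone, 506 with DESeq2 on recovered reads, 305 with the insert set as a term of the fit and 75 to 431 with 1 library left out. edgeR on recovered reads called 6093, 1211 and 157. The fits of 3 inserts a group use fewer libraries, and for the others the cause was not tested. As the submitted insert numbers do not pair the libraries (same-numbered correlations from -0.21 to 0.37 in female and -0.24 to 0.12 in male cultures, 2 and 0 of 6 highest with their own number), the replicate block appears only here, with 5861, 1202 and 112 genes, and 5622, 961 and 66 with the block within each sex. Of 10875 fold changes of named genes under an alternative, 10778 kept their side of the threshold over all cultures. For the test in both sexes, calls of named genes were not counted in this way. No named gene called over all cultures reversed its sign, and for named genes not called there the sign was not checked. The call over all cultures was lost most often for Derl3, Ltf and Rps2, under 17, 15 and 12 settings. Depth limits the genes with few reads in air, such as Sprr2d, Sprr2h, S100a9 and Ahrr.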

Other observations

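Genes outside every list also changed in both sexes. The examples here were chosen after their values were seen, by limma's test with Benjamini-Hochberg adjustment over all genes tested. Among DNA sensors of the interferon-inducible p200 family, Ifi209 rose by 3.32 ± 0.28, Ifi204 by 2.37 ± 0.26, Ifi203 by 2.37 ± 0.22 and Ifi202b by 1.78 ± 0.24 (log2 change ± SE), and within each sex no smoke library overlapped an air library. These genes are close copies, so reads may be divided between them. Apol9a and Apol9b, a further pair of interferon-induced copies, rose by 3.37 ± 0.41 and 3.17 ± 0.45. Ripk3 and Mlkl, the kinase and the pore protein of necroptosis, rose by 1.43 ± 0.18 and 1.88 ± 0.21, again without overlap within either sex. Cd274, which encodes the T cell inhibitor PD-L1, and Cd80, a costimulator, rose by 1.97 ± 0.33 and 1.52 ± 0.19.

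Barrier and lipid genes moved in both directions. Slurp1, a secreted protein of squamous epithelium, had a median normalised count of 5.27 (0.788 to 18.3) in air and 89.8 (18.5 to 265) in smoke, with lowest and highest library in parentheses, and rose by 3.92 ± 0.33. Every smoke library lay above every air library. Abca12, which loads lipids for the skin barrier, rose by 2.76 ± 0.33, and Arg1, arginase, by 1.65 ± 0.26. The fatty acid receptor gene Cd36, the lipid carrier gene Apoe and the alcohol dehydrogenase gene Adh1 fell (-2.29 ± 0.29, -1.88 ± 0.33 and -2.27 ± 0.27). Tacr1, the receptor of substance P, and Mme, the peptidase that degrades substance P, fell (-2.46 ± 0.37 and -2.35 ± 0.30), with no overlap between the 12 smoke and the 12 air libraries. The copper exporter gene Atp7b and the vitamin C carrier gene Slc23a1 fell (-3.15 ± 0.55 and -2.13 ± 0.30).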
